A study of Mus musculus with 10 samples.

Results

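The genes described here are subunits of the transcription factor NF-kB and the proteins that restrain it, measured in the preoptic region of mice given lipopolysaccharide (LPS). Of 10 genes listed for this group, 9 had a probe set whose annotation names that gene alone, and together they had 17 such probe sets of 45101 on the array. These were Nfkbia with 5 probe sets, Nfkbiz with 3, Nfkb2 and Tnfaip3 with 2 each, and Rela, Relb, Bcl3, Tnip1 and Zfp36 with 1 each. Nfkb1 is named by 0 probe sets of the annotation used here and has no value.

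The study had 10 mice of the DBA1/lacJ strain, 5 labelled wild-type (WT) and 5 labelled knockout (KO) for mPGES-1. That enzyme, encoded by Ptges, is induced in inflammation and produces prostaglandin E2, the mediator of fever. Every mouse in both groups had received 120 µg/kg of LPS, a bacterial cell wall component, into the peritoneum, and the brain was taken 5 h later. The preoptic region, a part of the hypothalamus that regulates body temperature, was cut out by laser capture microdissection. Each mouse gave 1 array, and the mice are called WT 1 to WT 5 and KO 1 to KO 5 by the numbers in their titles. All values are from after LPS, so they compare the genotypes in that state. The response to LPS itself is not analysed here. The labels used here give neither the age of the mice nor the deleted part of Ptges.

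NF-kB is a family of dimeric transcription factors. In resting cells inhibitor proteins of the IkB family hold the dimers in the cytoplasm. When LPS or a cytokine such as interleukin-1 or tumour necrosis factor acts on a cell, a kinase complex marks the inhibitor for destruction and the dimers enter the nucleus. Among the first genes they switch on are the inhibitors themselves, so the pathway limits its own activity. In the brain after peripheral LPS, the cells known to respond early include endothelial cells, perivascular cells and microglia.

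Several of these genes carry kB sites, the DNA sequence that NF-kB dimers bind, close to where transcription starts. The stretches shown are the 140 bases before a start site, 1 for each of the 4 genes in which a search found the consensus. The sequences are RefSeq's, build GRCm38.p6, 5′ to 3′ on the strand of the gene, and capitals mark every match to the kB consensus on either strand, with overlapping matches joined.
Nfkbia: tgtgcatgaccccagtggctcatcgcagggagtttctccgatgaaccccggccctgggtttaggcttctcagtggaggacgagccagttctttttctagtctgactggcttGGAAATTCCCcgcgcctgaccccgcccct
Tnfaip3: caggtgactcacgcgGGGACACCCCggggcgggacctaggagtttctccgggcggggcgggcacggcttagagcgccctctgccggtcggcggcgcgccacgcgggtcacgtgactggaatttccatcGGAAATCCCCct
Tnip1: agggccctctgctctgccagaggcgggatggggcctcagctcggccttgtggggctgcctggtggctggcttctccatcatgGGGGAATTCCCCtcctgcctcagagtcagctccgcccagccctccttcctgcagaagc
Nfkb2: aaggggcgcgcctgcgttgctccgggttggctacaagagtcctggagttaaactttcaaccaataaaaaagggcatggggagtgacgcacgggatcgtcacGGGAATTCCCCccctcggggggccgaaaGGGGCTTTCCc

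The Nfkbia stretch lies on the minus strand at chr12:55492648-55492787, and its match ends 19 bases before the start. The Tnfaip3 stretch is on the minus strand at chr10:19015411-19015550, the Tnip1 stretch on the minus strand at chr11:54962941-54963080, and the Nfkb2 stretch on the plus strand at chr19:46304597-46304736. The table has another Tnfaip3 start site, with 0 matches, and 2 further ones of Nfkb2, with 1 match each that lies farther upstream. Of the 10 listed genes 7 matched the sequence table, and 4 of those had the consensus, which is 10 bases long, in the 250 bases before a start site. The same search found it in 8.23% of 27025 genes and in 7.25% of 32851 start sites. Rela, Bcl3 and Zfp36 had no match in this window, which says only that these letters are not there. A match is a description of the sequence and no evidence of binding in these mice.

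The labels were checked first on the targeted gene. Ptges was not lower in the mice labelled knockout. Probe set 1439747_at gave an intensity of 49.96 ± 24.5 (SD, n = 5) in them against 4.54 ± 3.09 (SD, n = 5) in the mice labelled wild-type. By this probe set all 5 mice labelled knockout were above every mouse labelled wild-type (log2 difference 1.60, limma unadjusted p = 6.2e-05, adjusted p = 0.111). The size differed by probe set, since 1449449_at gave 40.2 ± 21.5 against 13.4 ± 13.6 and 1449450_at gave 37.3 ± 15.9 against 30.7 ± 19.7, both with overlap. The deleted part of the gene is unknown, so a probe set outside it checks nothing. Every direction below therefore rests on the labels. Of 10 listed markers of the preoptic region 8 were measured. Over the 10 arrays Gal was at 1158 to 1982, Esr1 at 303 to 583, Nts at 218 to 434 and Calcr at 88.8 to 220. The others were dimmer, with Moxd1 at 5.52 to 169, Hmx2 at 17.1 to 75.9, Hmx3 at 18.9 to 73.8 and Nkx2-1 at 13.0 to 67.6. Arrays had been scaled as a whole by the submitters, and the median intensity was still 32.0 to 44.8 on the arrays labelled wild-type against 24.6 to 29.8 on those labelled knockout. The RNA spike-in probe sets were bright on 7 arrays and at background on WT 2, WT 5 and KO 3.

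No NF-kB gene passed the test between the genotypes. The test was limma on log2(intensity + 16) over all 45037 probe sets other than controls, with a Benjamini-Hochberg adjusted p below 0.05. It called 0 of the 17 probe sets, and also 0 of all 45037 (0.0%), with a smallest adjusted p of 0.326 among the 17 and 0.111 among all. At an unadjusted limma p below 0.05 there were 4 of 17, all lower in the mice labelled knockout, against 8.97% of all probe sets lower, 3.68% higher and 12.6% in either direction. Among the brightest 60% of probe sets 14.5% were past it in either direction. These were Bcl3 1418133_at, Nfkbia 1420088_at and 1438157_s_at, and the dim Nfkbiz 1448728_a_at, so 2 of the 4 measure the same gene. The count of 4 was 0 without WT 2 or without WT 5, 1 without WT 4, KO 2, KO 3 or KO 5, and 2 without WT 3. With other scaling the directions differed, with 1 lower and 1 higher after quantile normalization, 0 lower and 2 higher after median centring, and 0 lower and 3 higher on the 7 spike-in-positive arrays. In 0 of the 17 were the groups apart without overlap, against 3.22% of all probe sets.

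By direction, 11 of the 17 probe sets had a lower mean in the mice labelled knockout, where 65.1% of all probe sets and 60.6% of all genes by 1 probe set each did, and with median centring of the arrays 7 were lower, where 31.8% of all probe sets were. Their median log2 difference was -0.23 against -0.13 over all probe sets, a background that was -0.01 with quantile normalization and 0.15 with median centring. The direction of 8 probe sets was the same under every other setting in which they had a value, 20 to 24 settings each. These were the 5 of Nfkbia, Relb, Bcl3 and Nfkbiz 1448728_a_at. The direction of the other 9 turned under at least 1 of theirs, and the plot of differences shows that their intervals all include 0.

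**Figure D1:**
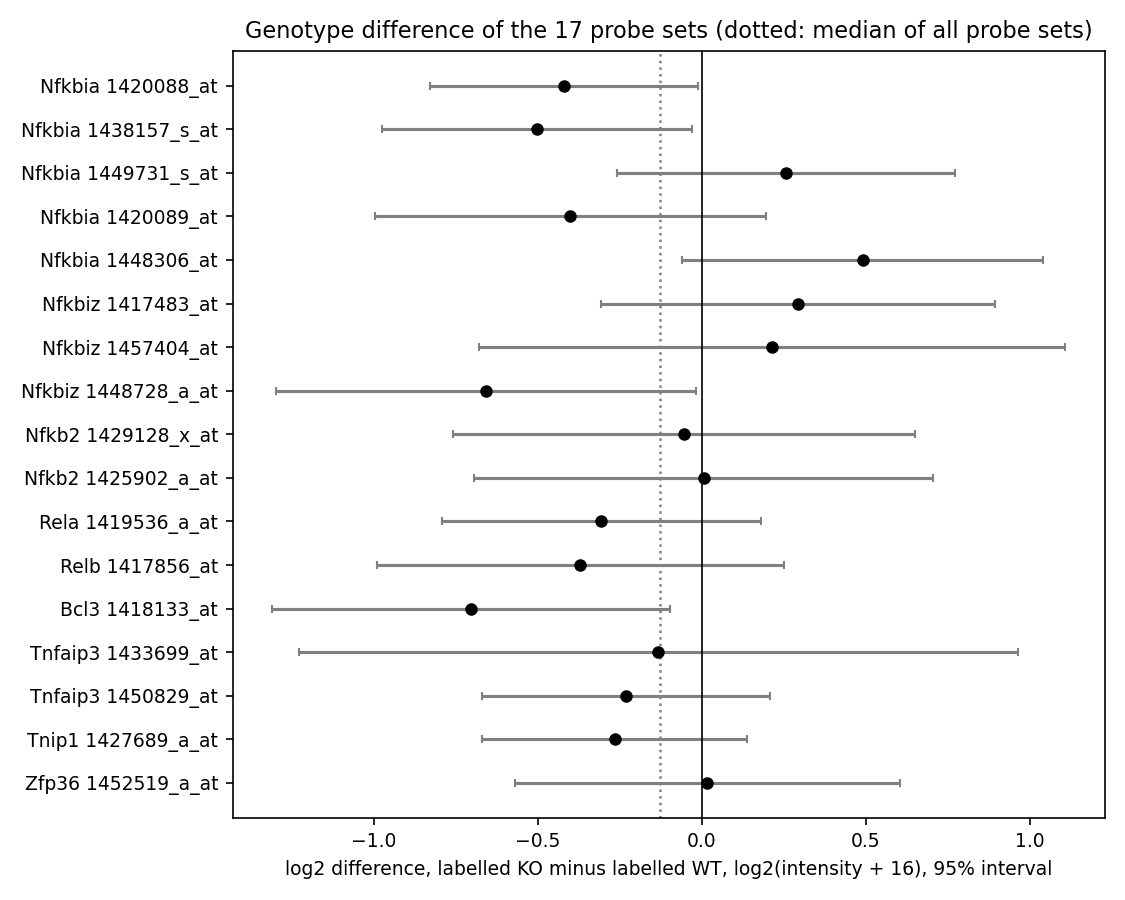
Log2 difference (labelled KO minus labelled WT) of each of the 17 probe sets on the log2(intensity + 16) scale, with 95% intervals from limma, 5 mice per group; the dotted line is the median over all 45037 probe sets (-0.13). The intervals of 4 probe sets, led by Bcl3 at -0.70, lie below 0 before adjustment, and 0 passed after it.

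The inhibitors of the IkB family come first. Nfkbia encodes IkB-alpha, the inhibitor that is destroyed when the pathway is switched on and is made again within the hour by NF-kB itself. Its brightest probe set, 1420088_at, gave intensities of 12941, 29715, 22347, 21059 and 20726 in WT 1 to WT 5 and 19611, 12578, 14169, 17323 and 14416 in KO 1 to KO 5. Thus 4 of the mice labelled wild-type were above all those labelled knockout, and WT 1 was below all but KO 2. The means were 21358 ± 5961 (SD, n = 5) and 15619 ± 2812, a log2 difference of -0.42 (SE 0.19, 95% interval -0.83 to -0.01, limma unadjusted p = 0.0445, adjusted p = 0.382). With quantile normalization it was -0.04. Probe set 1438157_s_at showed the same order of groups, at 4220 ± 1322 against 2873 ± 594 (log2 -0.50, SE 0.22, limma adjusted p = 0.367).

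The 5 Nfkbia probe sets had differences of both signs. Probe set 1420089_at was at -0.40 (SE 0.28), with a limma adjusted p of 0.569. By contrast 1449731_s_at was at 0.26 (SE 0.24, limma adjusted p = 0.684) and 1448306_at at 0.49 (SE 0.26, limma adjusted p = 0.442). Probe set 1449731_s_at gave 316, 900, 616, 623 and 701 in WT 1 to WT 5 and 1119, 573, 508, 786 and 748 in KO 1 to KO 5. Each of the 4 probe sets, over all genes, whose sign was opposite to that of the gene's brightest one was then set against it array by array. These pairs were picked by the sign of the difference that is compared, so their test is not independent of that choice. The log2 distance from 1449731_s_at to 1420088_at was 5.07 ± 0.16 (SD, n = 5) in the mice labelled wild-type and 4.39 ± 0.24 in those labelled knockout, with no overlap (two-sided exact permutation test over 252 arrangements, p = 0.0079, the smallest it allows; 0.032 after Benjamini-Hochberg adjustment over the 4 pairs). Over all 8 pairs of a brightest probe set with another of its gene, a family added after the data were seen, 0 passed, and the adjusted exact p of both Nfkbia pairs of opposite sign was 0.063.

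Across mice, on the other hand, 1449731_s_at followed 1420088_at closely, and 1448306_at did not. Probe set 1448306_at gave 51.1, 38.4, 85.9, 57.5 and 117 in WT 1 to WT 5 and 126, 108, 89.9, 86.2 and 87.6 in KO 1 to KO 5. WT 2, the highest array for 1420088_at, was the lowest here. The distance from this probe set to 1420088_at differed by -0.91 between the groups (exact permutation p = 0.016, adjusted 0.032), and the groups overlapped. With quantile normalization the 2 disagreements were -0.21 and -0.69, with adjusted exact p of 0.265 and 0.127. On the 7 spike-in-positive arrays they were -0.86 and -0.77, with no overlap between the groups in either. Their exact p of 0.029 and 0.057 came from 35 arrangements, which allow no p below 0.029, and both were 0.076 after adjustment. The part of the transcript that each probe set reads is not analysed here.

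**Figure D2:**
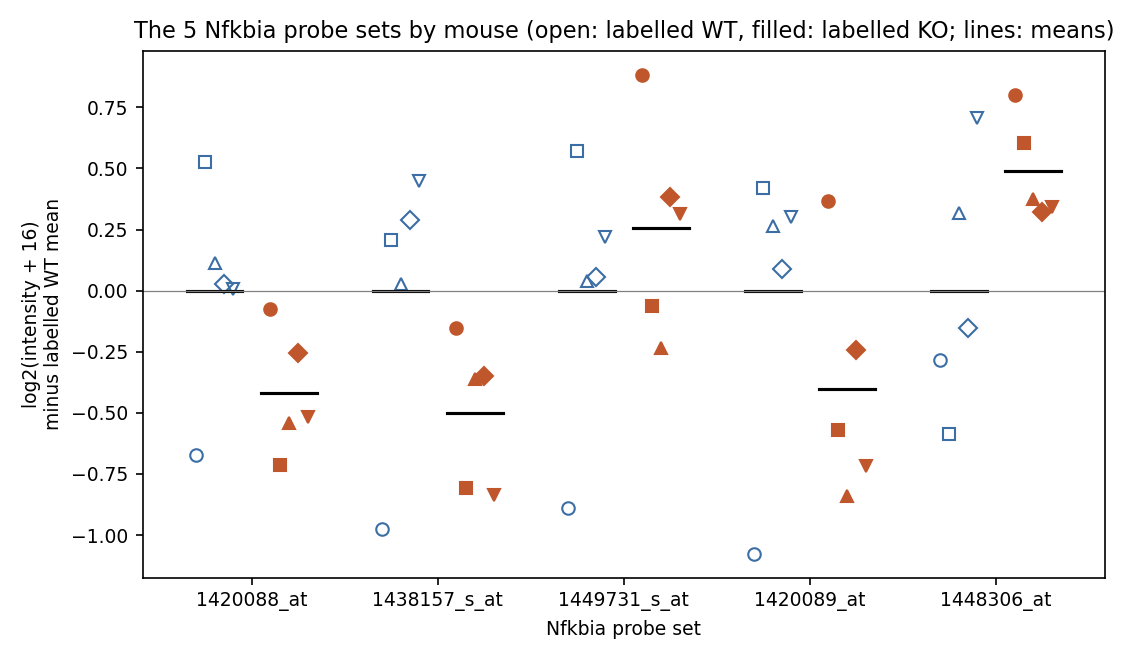
The 5 Nfkbia probe sets, as log2(intensity + 16) minus the mean of the mice labelled wild-type, 1 point per mouse; open blue points are labelled WT, filled orange points labelled KO, the shapes circle, square, triangle, diamond and inverted triangle stand for replicates 1 to 5, and black lines are group means. The mean of the mice labelled knockout is below 0 for 1420088_at, 1438157_s_at and 1420089_at and above 0 for 1449731_s_at and 1448306_at.

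Bcl3 encodes an unusual IkB protein that works in the nucleus with NF-kB subunits p50 and p52 and can raise or lower transcription. Its difference was the largest among the 17 probe sets with the pseudocount of 16 and all arrays. Bcl3 did not have the largest difference with a pseudocount of 1 or 64, with quantile normalization or after median centring. Nor did it on the 7 spike-in-positive arrays, or without WT 1, WT 3, WT 5 or KO 3. Its probe set 1418133_at gave 85.2, 214, 113, 86.2 and 166 in WT 1 to WT 5 and 107, 62.3, 35.0, 81.4 and 86.5 in KO 1 to KO 5. WT 2, WT 5 and WT 3 were above every mouse labelled knockout, and KO 2, KO 3 and KO 4 were below every mouse labelled wild-type. The means were 133 ± 56.0 (SD, n = 5) and 74.4 ± 27.1, a log2 difference of -0.70 (SE 0.29, 95% interval -1.31 to -0.10, limma unadjusted p = 0.0256, adjusted p = 0.326). It was -0.15 on the 7 spike-in-positive arrays, and between -0.83 and -0.51 when each array was left out in turn.

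Nfkbiz encodes IkB-zeta, another nuclear IkB protein, which NF-kB induces and which is needed for a second set of NF-kB targets that includes Il6 and Lcn2. Its brightest probe set, 1417483_at, gave 128, 322, 319, 155 and 481 in WT 1 to WT 5 and 428, 302, 223, 296 and 348 in KO 1 to KO 5. The groups overlapped fully, with WT mice at both ends, and the log2 difference was 0.29 (SE 0.29, 95% interval -0.31 to 0.89, limma adjusted p = 0.690), or -0.05 as the mean of the gene's probe sets. Probe set 1457404_at followed it across mice and was at 0.21 (SE 0.42), and turned below 0 without WT 1 or WT 4. The dim 1448728_a_at, at 19.9 ± 16.5 (SD, n = 5) against 5.53 ± 6.31, had a log2 difference of -0.66 (SE 0.30, limma adjusted p = 0.382), which was -1.70 with a pseudocount of 1 and -0.25 with one of 64. The disagreement between 1448728_a_at and the brightest probe set did not pass after adjustment (0.95, exact permutation p = 0.071, adjusted 0.095).

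No subunit gene passed the test between the groups. Rela encodes p65, the subunit that carries most of the activating function. Its probe set 1419536_a_at gave 379, 560, 443, 654 and 1140 in WT 1 to WT 5 and 593, 405, 428, 483 and 475 in KO 1 to KO 5. WT 5 stood far above all other mice, and the rest overlapped, so that the log2 difference of -0.31 (SE 0.23, 95% interval -0.79 to 0.18, limma adjusted p = 0.596) was -0.07 without WT 5, -0.46 without WT 1, 0.02 on the 7 spike-in-positive arrays and -0.73 after adjustment for the hybridization control level.

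Relb encodes a subunit of the slower, non-canonical branch, in which it pairs with p52, the product of Nfkb2. Relb probe set 1417856_at gave 28.5, 78.6, 42.3, 35.8 and 75.4 in WT 1 to WT 5 and 52.5, 27.0, 31.4, 26.6 and 37.9 in KO 1 to KO 5. WT 2 and WT 5 were above every other mouse, and KO 1 came next, so the groups overlapped (log2 difference -0.37, SE 0.30, limma adjusted p = 0.616). The difference was -0.13 with quantile normalization and -0.01 on the 7 spike-in-positive arrays. Both Nfkb2 probe sets were dim, between 5.34 and 53.0 for 1429128_x_at and between 2.25 and 40.1 for 1425902_a_at over the 10 arrays. Their log2 differences were -0.06 (SE 0.33, 95% interval -0.76 to 0.65) and 0.0052 (SE 0.33, 95% interval -0.69 to 0.70), and the sign of each turned under several settings.

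The remaining members are feedback proteins that act on signalling and on messenger RNA. Tnfaip3 encodes A20, an enzyme that edits ubiquitin chains and so shuts down the signal from Toll-like and tumour necrosis factor receptors. Probe set 1433699_at gave 103, 497, 156, 260 and 745 in WT 1 to WT 5 and 973, 92.8, 328, 123 and 253 in KO 1 to KO 5. The highest and the lowest mouse were both labelled knockout, and on the log2(intensity + 16) scale the highest was 9.09 times the lowest in that group and 6.42 times in the other. With this spread the group means, 352 ± 267 (SD, n = 5) and 354 ± 359, gave a log2 difference of -0.13 (SE 0.52, 95% interval -1.23 to 0.96, limma adjusted p = 0.935), which was -0.60 without KO 1 and 0.21 without WT 5. The second Tnfaip3 probe set, 1450829_at, did not exceed 16.9 on any array.

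Tnip1 encodes a partner of A20 that binds ubiquitin chains and helps it act on the kinase complex. Probe set 1427689_a_at gave 582, 827, 625, 1015 and 1040 in WT 1 to WT 5 and 909, 511, 645, 653 and 634 in KO 1 to KO 5. Only KO 1 among the mice labelled knockout came near the upper WT mice, and the log2 difference was -0.27 (SE 0.19, 95% interval -0.67 to 0.14, limma adjusted p = 0.578), or 0.01 with median centring. Zfp36 encodes tristetraprolin, which binds AU-rich elements of cytokine messenger RNAs and hastens their decay. Probe set 1452519_a_at gave 61.9, 67.5, 61.1, 46.8 and 140 in WT 1 to WT 5 and 108, 56.2, 51.3, 84.9 and 69.6 in KO 1 to KO 5. WT 5 and KO 1 were again the highest mice of their groups, and the log2 difference was 0.02 (SE 0.28, 95% interval -0.57 to 0.60, limma adjusted p = 0.986), and -0.41 after adjustment for the hybridization control level.

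**Figure D3:**
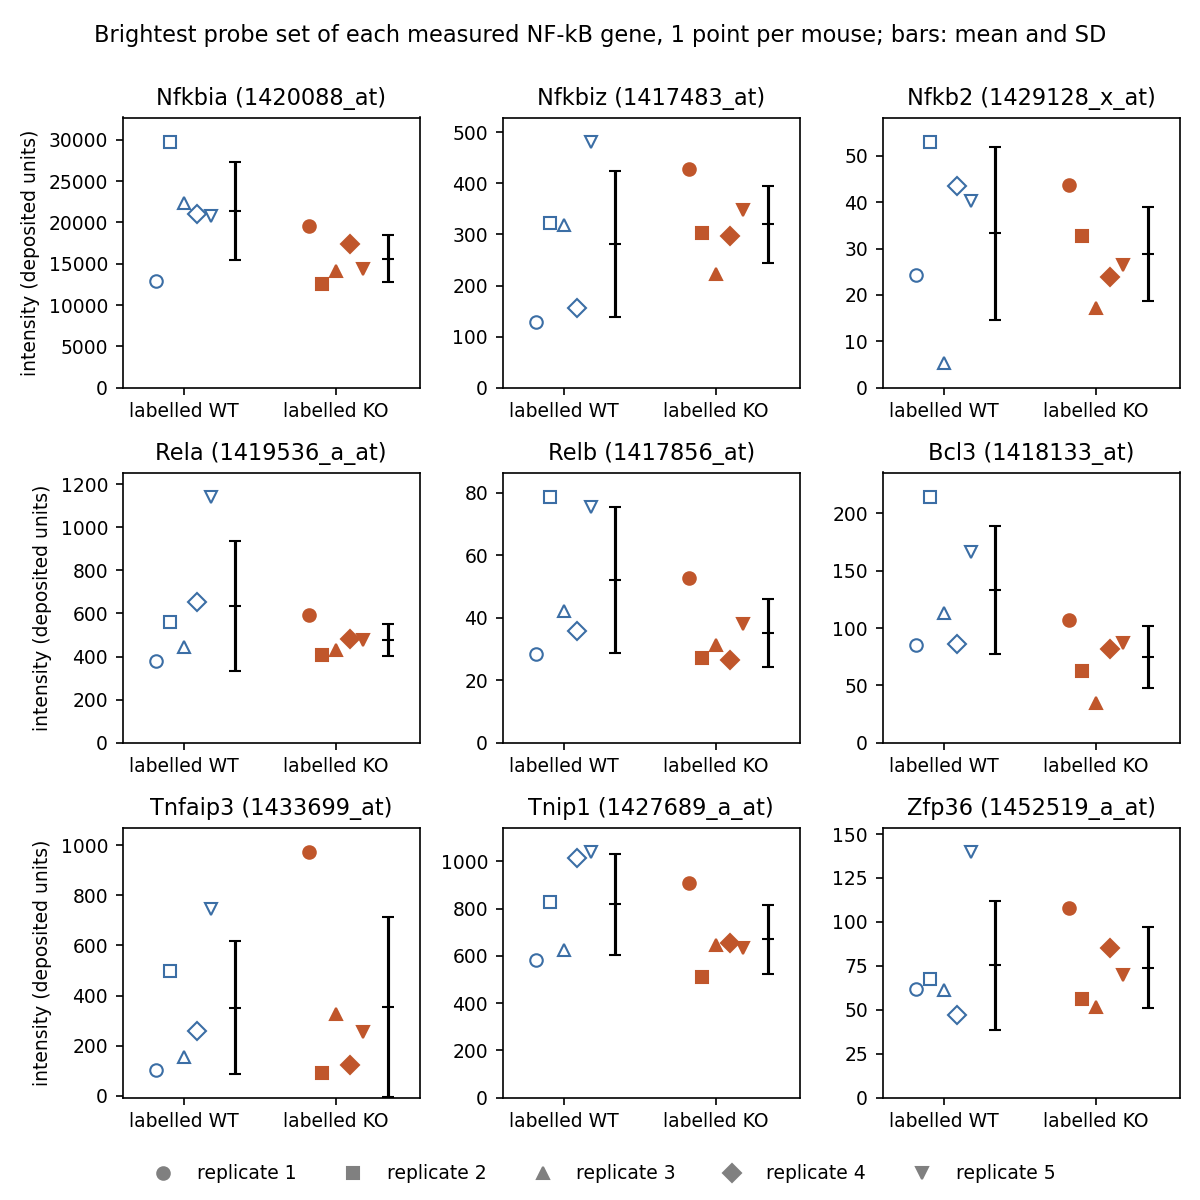
Intensity (deposited units, linear axis including 0) of the brightest probe set of each measured gene, 1 point per mouse, open blue for labelled WT and filled orange for labelled KO, with shapes for replicate numbers; black bars are the group mean and SD (n = 5). The groups overlap in all 9 genes, and KO 1 (filled circle) is the highest of the mice labelled KO in each.

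What the 9 genes had in common was mainly which mice were highest and, among those labelled wild-type, which was lowest. By their brightest probe sets, KO 1 was the highest mouse labelled knockout in 9 of 9 genes, and WT 1 the lowest mouse labelled wild-type in 7 of 9. The highest mouse labelled wild-type was WT 5 in 5 genes and WT 2 in 4. The lowest mouse labelled knockout differed by gene, and was KO 2 in 4 genes, KO 3 in 4 and KO 4 in 1. Averaged over the 9 genes, the log2 value was 7.70, 8.67, 8.00, 8.17 and 8.91 in WT 1 to WT 5 and 8.67, 7.77, 7.85, 7.98 and 8.10 in KO 1 to KO 5. WT 5, WT 2 and KO 1 were thus the high mice, and WT 1 and KO 2 the low ones, and the group means were 8.29 ± 0.49 (SD, n = 5) and 8.08 ± 0.35. WT 2 and WT 5 were also the only mice labelled wild-type with spike-in probe sets at background, while KO 1 had them bright. KO 3 had them at background as well and, at 7.85, was among the low mice labelled knockout. Of the 17 probe sets 16 had a larger SD in the mice labelled wild-type, where 71.1% of all probe sets did.

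**Figure D4:**
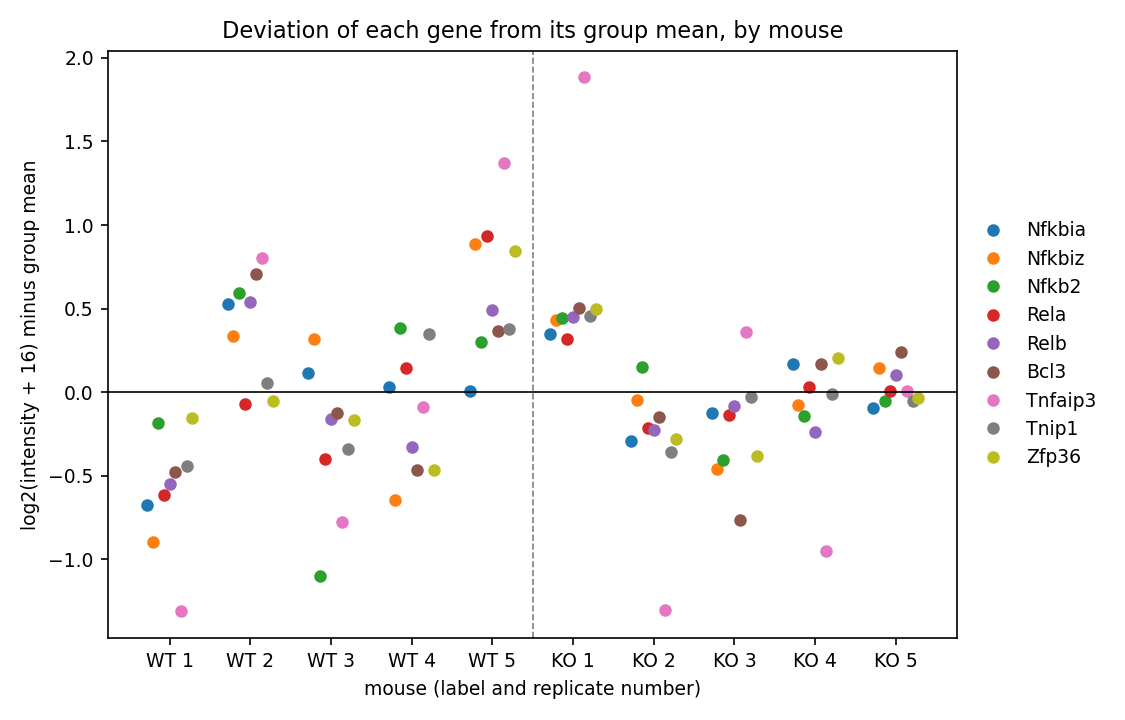
Deviation of each gene's brightest probe set from its group mean, on the log2(intensity + 16) scale, for each of the 10 mice; colours stand for the 9 genes, and the dashed line parts the labels. All 9 genes lie above 0 in WT 5 and KO 1 and below 0 in WT 1, and Tnfaip3 spans the widest range.

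The relations among the 9 genes were examined with group means removed, which takes out the difference between the labels. All 9 genes come from the same 10 arrays, and variation that genes of an array share remains. The permutations ran over all 10 arrays without regard to group. Nfkbia, by 1420088_at, had a positive Pearson r with each of the other 8, from 0.31 (Nfkb2) to 0.71 (Relb), and a positive Spearman rho, from 0.38 (Zfp36) to 0.73 (Bcl3). In 0 of the 8 did the relation pass adjustment, the smallest Benjamini-Hochberg adjusted permutation p being 0.101 for r and 0.157 for rho. Without KO 2 and WT 2, the 2 arrays farthest from the median of Nfkbia, r with Relb was 0.54 and with Bcl3 0.53, and on the 7 spike-in-positive arrays they were 0.67 and 0.72. With quantile normalization 5 of the 8 passed, namely Nfkbiz, Relb, Bcl3, Tnfaip3 and Tnip1, with r from 0.68 to 0.76 (adjusted permutation p 0.030 to 0.043). Without WT 1 and KO 1, a setting added after the data were seen, the 8 r lay between -0.22 (Rela) and 0.56 (Bcl3), so the relations of Nfkbia rest in part on those mice.

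All 36 pairs of the 9 genes were then computed, a step added after the order of the mice was seen. In 36 of 36 Pearson r was above 0, with a median of 0.61 and a range of 0.17 to 0.87, and Spearman rho ranged from 0.30 to 0.92. For comparison, the median r of each of the 9 genes with 13483 other genes above the 40th percentile of mean log2 value lay between -0.03 and 0.05. That background is of all such genes, and several other NF-kB target genes, named below, had the same high and low mice. After adjustment over the 36 pairs, 6 passed by permutation of r and 5 by rho. Rela and Tnip1 had r = 0.85 and rho = 0.92 (permutation p = 0.00036 and 0.00056, adjusted 0.013 and 0.020), and r = 0.94 without the 2 arrays farthest from the median of Rela and 0.98 on the 7 spike-in-positive arrays. Relb and Tnfaip3 had r = 0.87 and rho = 0.85 (adjusted permutation p = 0.023 and 0.026), and Tnfaip3 and its partner gene Tnip1 r = 0.85 and rho = 0.83 (0.028 and 0.033). The other pairs that passed by r were Nfkbiz with Relb and with Bcl3, and Relb with Bcl3, of which the last did not pass by rho (adjusted permutation p = 0.074). Without WT 1 and KO 1 the median r was 0.41, and 33 of 36 pairs stayed above 0. On the 7 spike-in-positive arrays the median was 0.57, with 32 of 36 above 0.

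The genes outside the group with the pattern most like Nfkbia, by Pearson r with group means removed over the 10 arrays, were Map3k8 (0.95), 2410137M14Rik (0.95), Pmvk (0.95), Psma3 (0.94) and Ndufb3 (0.94), out of 13483 genes. Their own log2 differences were 0.10, -0.90, -0.15, -0.05 and -0.06, with limma adjusted p from 0.251 to 0.931.

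The rest of the pathway was covered by 4 lists of 72 genes in all, of which 67 were measured, and 0 passed limma's adjusted threshold. At an unadjusted limma p below 0.05, 3 were higher and 7 lower in the mice labelled knockout, where 14.0% of all genes were past it in either direction. Of 16 measured genes for the kinases and adaptors that switch NF-kB on, 9 had a higher mean and 7 a lower, with a median log2 difference of 0.05. Tradd, an adaptor of the tumour necrosis factor receptor, had a log2 difference of -0.73 (SE 0.28, limma adjusted p = 0.291). That of Map3k14, the kinase of the non-canonical branch, was -0.50 (SE 0.27). Of 9 other Rel and IkB family genes, 4 were higher and 5 lower. Nkrf, a repressor of NF-kB target promoters, was at 0.50 (SE 0.19, limma adjusted p = 0.293) and Nfkbil1 at -0.54 (SE 0.29). Of 17 measured further feedback genes, 8 were higher and 9 lower. Tax1bp1, an adaptor that brings A20 to its targets, had a log2 difference of 0.52 (SE 0.18, limma adjusted p = 0.258). The deubiquitinase gene Cyld was at 0.47 (SE 0.18, limma adjusted p = 0.286).

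Of 25 measured inflammatory target genes of NF-kB, 20 had a lower mean in the mice labelled knockout and 5 a higher. Among all genes by 1 probe set each, 60.6% were lower. The median log2 difference was -0.22 for the target genes against -0.09 for all genes. This count is not given here under other scaling. The median over all probe sets turned from -0.13 to 0.15 with median centring. Irf1, a transcription factor gene induced by interferon and NF-kB, was at 291 ± 60.5 (SD, n = 5) against 166 ± 36.0 (log2 -0.74, SE 0.20, limma adjusted p = 0.169). Ier3, an early response gene, was at 553 ± 104 against 336 ± 108 (log2 -0.73, SE 0.21, limma adjusted p = 0.181). The chemokine gene Cxcl1, named here after its values were seen, gave 748, 13158, 3391, 3476 and 17001 in WT 1 to WT 5 and 18295, 1621, 2967, 2550 and 2848 in KO 1 to KO 5. WT 5, WT 2 and KO 1, the high mice of the NF-kB genes, were also its highest, and WT 1 its lowest. The same mice were highest, with WT 1 the lowest labelled wild-type, for Cxcl2, Cxcl10, Ccl2, Ccl5, Lcn2, Tlr2, Cebpd, Ptgs2, Sod2, Plaur and the feedback gene Birc3. These genes too were named after their values were seen. Other target genes did not have this order, among them Tnf, Il1b, Gadd45b, Icam1, Selp, Vcam1 and Csf1. Ier3 did not have it either. Irf1 had it within each group, with WT 5 and WT 2 highest and WT 1 lowest among the mice labelled wild-type. KO 1 was its highest mouse labelled knockout, but at 231 it was below WT 2 to WT 5. The order of mice was therefore not particular to the 9 genes.

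Markers of cell types that carry this pathway were also looked at, and 0 of the microglia and endothelium markers passed limma's adjusted threshold. Of 10 measured microglia markers 8 had a lower mean, where 60.6% of all genes did. Their summed intensity was 6830 to 10492 in the mice labelled wild-type and 4858 to 7067 in those labelled knockout, most of it from the probe set of Csf1r. Without Csf1r the other 9 summed to 525 to 1013 and 363 to 854, and the groups overlapped with it and without it. Csf1r alone was at 6241 to 9479 and 4477 to 6213, without overlap (limma adjusted p = 0.171). Of 9 measured brain endothelium markers 7 had a lower mean, and their sums were 1273 to 2265 against 863 to 1416. In neither list was a marker at 0, which does not show that each was detected. On their dimmest arrays Pecam1 was at 0.90, Itgam at 1.12, Trem2 at 1.41 and Kdr at 2.25. Itgam, Trem2 and Pecam1 lay below the 40th percentile of mean log2 value. In tissue pieces like these, fewer cells of a type and less RNA per cell cannot be told apart. KO 1, the mouse labelled knockout with the highest NF-kB genes, had the lowest endothelial sum (863). WT 1, the mouse labelled wild-type with the lowest NF-kB genes, had the second highest in its group (1689). By contrast WT 2, a high mouse of the NF-kB genes, had the highest endothelial sum of all 10 mice (2265). WT 5, another high mouse, was at 1396. Neutrophil markers, 6 measured, summed to 171 (WT 1) to 1248 (WT 4) and to 127 (KO 2) to 620 (KO 1). The 7 measured markers of pericytes and smooth muscle summed to 2192, 3040, 2703, 2495 and 4613 in WT 1 to WT 5. In KO 1 to KO 5 they summed to 2794, 2063, 1962, 3367 and 2131. WT 5 and WT 2 were thus the highest and WT 1 the lowest labelled wild-type, while KO 4 was above KO 1. Of 6 measured markers of the neighbouring striatum and septum 1 was lower, and their sums were 577 to 947 and 782 to 2447. The part of these markers in the differences between the groups or in the order of mice was not tested.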

How the data were processed

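RNA amplified in 2 rounds was measured on 1 array per mouse, 10 in all. Per the submitters' processing notes GCOS was used. No version or setting of it was given in the sources used here. What the authors deposited is 1 linear intensity per probe set and array. Every array had a mean intensity of 200.002 without the lowest and highest 2% of probe sets, so dim and bright probe sets can still shift against each other. Names came from the platform annotation, and 34945 probe sets named 1 gene. The members and lists were chosen with earlier results of these data known. The fit was limma 3.58.1 (R 4.3.3; lmFit, eBayes with an intensity trend) by probe set without a filter, on 45037 probe sets, knockout minus wild-type label. Its output was tested on simulated data. Permutation tests used 100000 resamples or all arrangements (Python 3.11.15, numpy 2.4.6, pandas 2.3.3). Named genes were the members, the 2 genes of each pathway list with the smallest p (none passed the threshold) and the 5 most like Nfkbia. Cxcl1 and the genes set beside it by the order of mice were named after their values were seen. For relations between members a gene took its probe set with the highest mean. In the pathway and marker lists a probe set ending in _x_at was taken only where there was no other. Same-numbered mice did not deviate together (correlations -0.05 to 0.03), so numbers were not treated as pairs. Alternatives tried were other pseudocounts (1 and 64), quantile and median normalization, filters on the dimmest 40% or 60%, gene-level values, no trend, array weights, blocks, a covariate and leaving out arrays. The number of arrays limits the precision, and p-values measure the spread between mice together with dissection and amplification.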

Additional observations from a re-analysis of the deposited data

Results flagged for a closer look

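In 34 groups of 5 mice (17 probe sets, 2 labels) 2 values stood apart from the other 4, where chance gives about 1 in 20 groups. WT 1 was at 99.4 for Nfkbia 1420089_at against 243 for the nearest mouse, a gap of 0.78 of the group's range on the log2(intensity + 16) scale. KO 3 was at 6.79 for the dim Tnfaip3 1450829_at against 2.23, a gap of 0.72 of the range.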

How the results depend on the processing

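Under 24 other settings, not all of which gave every probe set a value, 0 member probe sets passed limma's adjusted threshold (smallest adjusted p = 0.148), and over 383 recomputed member values 343 kept their direction and 40 turned. All probe sets past the threshold numbered 550 with median centring, 3 with 1 probe set per gene, 1 with probe sets averaged by gene, 1 with the replicate number as a block, and 0 to 1 leaving out arrays. Of the pathway genes 1, Tax1bp1, passed with median centring. Lower member probe sets at unadjusted p, 4 of 17, numbered 1 with quantile normalization, 0 with median centring, 2 with 1 probe set per gene, 1 with the mean of probe sets, 2 without a trend, 1 with the replicate block, 1 with the spike-in block, 0 within the 7 arrays with spike-in signal and 2 with the hybridization covariate. They numbered 0 without WT 2 or WT 5 and 5 without WT 1 or KO 1. Higher ones, 0 of 17, numbered 1, 2 and 3 with quantile normalization, with median centring and within the 7 arrays, and 0 to 1 leaving out arrays. The cause was not tested, beyond fewer values being tested at gene level.

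Directions turned as follows. With median centring Nfkb2 1429128_x_at was at 0.22, Tnfaip3 at 0.15 (1433699_at) and 0.049 (1450829_at) and Tnip1 at 0.014. Nfkb2 1429128_x_at was also at 0.049 with a pseudocount of 1, 0.19 with quantile normalization and 0.34 within the 7 arrays, and 1425902_a_at at -0.012 with a pseudocount of 64, -0.025 as the mean of probe sets, -0.14 with array weights and -0.22 with the covariate. Nfkbiz 1417483_at was at -0.051 as the mean of probe sets and -0.00057 with the covariate. Zfp36 was at -0.058 with array weights and -0.41 with the covariate. Tnfaip3 1433699_at was at 0.12 with the spike-in block, and within the 7 arrays it was at 0.50, 1450829_at at 0.017 and Rela at 0.016. Leaving out arrays, values ranged from -0.062 to 0.47 (Nfkbiz 1457404_at), -0.33 to 0.094 and -0.16 to 0.24 (Nfkb2), -0.60 to 0.21 (Tnfaip3 1433699_at) and -0.11 to 0.23 (Zfp36).

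The Nfkbia disagreements were smaller and past the threshold no longer with quantile normalization (-0.21 and -0.69). Adjusted over all 8 pairs, a setting added after seeing the data, neither passed (-0.68 and -0.91). Within the 7 arrays they were -0.86 and -0.77, larger for 1449731_s_at, where the smallest exact p possible is 0.029. Leaving out arrays, that of 1449731_s_at was -0.77 to -0.61 and that of 1448306_at -1.08 to -0.63, no longer past the threshold without KO 1, 2, 3 or 5 (lowest there -0.92). The Nfkb2 disagreement, -0.06, was 0.019 with quantile normalization, 0.17 within the 7 arrays and -0.25 to 0.14 leaving out arrays. Nfkbia's r with Nfkb2 was -0.079 within the 7 arrays. With Rela it was 0.026 to 0.74 leaving out arrays and -0.22 without WT 1 and KO 1, a setting chosen after seeing the data.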
